A study of Mus musculus with 3 samples.

Results

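Fgf4, Spry2, Spry4, Ier2 and Jund are 5 genes of FGF-ERK signalling and of the immediate early response. All rows of the deposited Mettl3 and Zfp217 tables with one of these symbols were taken, which gave 1 protein-coding transcript per gene, the same one in both tables, or 5 of the 13595 transcripts and 5 of the 8547 symbols listed in either table. The 3 libraries, 1 each, were RNA immunoprecipitated (RIP) from nuclear lysate of mouse CCE embryonic stem cells with an antibody against Mettl3, RNA immunoprecipitated from the same kind of lysate with an antibody against Zfp217, and input. CCE cells were grown on gelatin without feeders, in serum and LIF and with no further treatment, and no library was made from another line, genotype or treatment. No pull-down with a nonspecific antibody was analysed here, so a ratio over input includes whatever RNA the beads hold without the antibody's target.

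FGF4 is the growth factor through which embryonic stem cells stimulate themselves: it binds FGF receptors, which activate Ras, Raf, MEK and ERK. In mouse embryonic stem cells this cascade is known for moving cells out of the naive state toward differentiation. ERK activity also switches on immediate early genes, which need no new protein for their transcription, and Sprouty proteins, which feed back to restrain the cascade. Mettl3 is the catalytic subunit of the m6A methyltransferase, and Zfp217 is a zinc finger protein that the series' title ties to m6A.

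Values are FPKM, fragments scaled by transcript length and by library size, as the authors deposited them. Both tables hold a selection: no listed RIP value was under 1 FPKM and no listed ratio over a nonzero input was under 1.5-fold, so every gene here is higher in the RIP than in the input by the construction of the tables. With 1 library per group there is no replicate error and no p-value, and intervals are 95% counting intervals from estimated read numbers, which leave out variation between cultures or immunoprecipitations. Read numbers were recovered from the steps in the FPKM values. This gave about 9805000 fragments for the Mettl3 RIP and 7065000 for the Zfp217 RIP. The input gave 6185000 in the Mettl3 table and 6120000 in the Zfp217 table. The same input library thus has a different number in each table, so these numbers are scales and not exact counts of a library's fragments. Of the stem cell markers Pou5f1, Sox2, Nanog, Esrrb, Zfp42, Klf4 and Tdgf1, 5 of 7 were listed, with Sox2 highest at 42.7 FPKM in the input. Of 5 feeder markers only Vim was listed, at 1.48 FPKM in the input, and none of the 4 primitive endoderm and 3 neuroectoderm markers was listed. A gene that is not listed may still be expressed.

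Mettl3 methylates adenosine within a short consensus, of which GGACT in DNA letters is the best known form, so its copies on the sense strand are shown as context for the RNA the antibodies recovered. The motif occurs 7 times in Spry2, 5 times in Ier2, 4 times each in Fgf4 and Jund and 2 times in Spry4. Per kilobase of transcript this is 3.35 in Spry2, 3.29 in Ier2, 2.40 in Jund, 1.32 in Fgf4 and 0.421 in Spry4, against quartiles of 0.597 and 1.47 over the listed coding transcripts. Spry2 and Ier2 therefore lie above 98.7% and 98.5% of listed coding transcripts in motif density, and Spry4 above 16.8%. The copies in Jund crowd just after the stop codon, those in Ier2 lie mostly in the 3′ UTR, and those in Spry2 form a group at the start of the 5′ UTR and another in the coding region. Within 150 bases of the start of the stop codon the motif occurs 3 times in Jund, 1 time in Ier2 and in none of the other genes, and 31.4% of 37543 such 300-base windows in M21 coding transcripts hold it. Representative copies are printed 5′ to 3′ from the transcripts of the mouse annotation GENCODE M21 (build GRCm38, coordinates of the printed bases), with the motif in capitals and 10 bases on each side. A motif match does not show that the site is methylated.
Fgf4, coding region, chr7:144861704-144861728, plus strand: gcggcgcaggGGACTacctgctggg
Spry2, coding region, chr14:105893200-105893224, minus strand: acaggtgtgaGGACTgcggcaagtg
Spry2, coding region, chr14:105893146-105893170, minus strand: ccctgccgtcGGACTggatctgtga
Spry2, coding region, chr14:105893090-105893114, minus strand: attgactatgGGACTtgtgtgtgct
Ier2, coding region, chr8:84662338-84662362, minus strand: tagtgatgccGGACTggtaccaagc
Ier2, 3′ UTR, chr8:84661953-84661977, minus strand: gccaggggaaGGACTgaggagcgag
Jund, 3′ UTR, chr8:70700097-70700121, plus strand: gcgcatgcgcGGACTagctgcggtg
Jund, 3′ UTR, chr8:70700124-70700148, plus strand: ggggcgccccGGACTctttcgagac
Jund, 3′ UTR, chr8:70700150-70700174, plus strand: cggtgcccccGGACTcgacaagccg

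**Figure D1:**
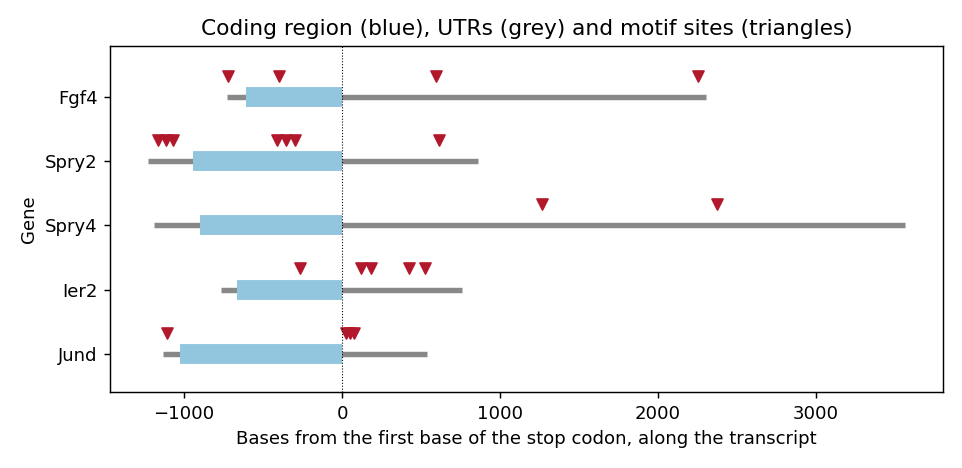
Transcript maps of the 5 genes, aligned at the first base of the stop codon (x axis, bases along the transcript), with coding regions in blue, UTRs in grey and each sense-strand copy of the motif as a triangle. Spry2 has 7 copies, most of them before the stop codon, while 3 of the 4 copies in Jund lie directly after it.

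The listed transcripts differ in structure. Fgf4 (ENSMUSG00000050917, chromosome 7 from 144847367 to 144865243, plus strand, GRCm38) has 3 exons in its listed transcript, a coding region for 202 residues and a 3′ UTR of 2302 bases. Spry2 (ENSMUSG00000022114, chromosome 14 from 105891947 to 105896819, minus strand) has 2 exons, 315 residues and a 3′ UTR of 856 bases. Spry4 (ENSMUSG00000024427, chromosome 18 from 38586247 to 38601415, minus strand) has 2 exons, 300 residues and the longest 3′ UTR of the 5, at 3559 bases. Ier2 (ENSMUSG00000053560, chromosome 8 from 84661331 to 84662852, minus strand) and Jund (ENSMUSG00000071076, chromosome 8 from 70698949 to 70700616, plus strand) have 1 exon and no intron, with 221 and 341 residues. The listed Jund transcript, ENSMUST00000165353, is not in GENCODE M21, so the gene's only M21 transcript, ENSMUST00000095267, stood in for its length and sequence. Ier2 and Jund are rich in G and C, at 60.9% and 67.1% of bases, against a median of 48.9% over the 6853 listed coding transcripts found in M21.

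Fgf4, the ligand, had 27.7 FPKM in the Mettl3 RIP, 34.5 FPKM in the Zfp217 RIP and 18.1 FPKM in the input. Over input, it was 1.53-fold higher in the Mettl3 RIP (interval 1.34 to 1.74, about 784 reads against 323). In the Zfp217 RIP it was 1.89-fold higher (1.65 to 2.16, about 705 reads against 323). Fgf4 thus lay just above the tables' 1.5-fold limit for Mettl3 and closer to 2-fold for Zfp217.

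Spry2, a Sprouty inhibitor of receptor tyrosine kinase signalling, had 32.2 FPKM in the Mettl3 RIP, 36.6 FPKM in the Zfp217 RIP and 17.3 FPKM in the input. The ratio over input was 1.86 for Mettl3 (1.59 to 2.19) and 2.10 for Zfp217 (1.78 to 2.47). Spry4, its paralog and another feedback inhibitor, was the most abundant of the 5 transcripts in every library, at 53.9 FPKM in the Mettl3 RIP, 37.3 FPKM in the Zfp217 RIP and 23.5 FPKM in the input. Its ratio over input was 2.29 in the Mettl3 RIP (2.10 to 2.50, about 2439 reads against 670). In the Zfp217 RIP it was 1.57 (1.43 to 1.73, about 1218 reads against 671). The paralogs were ordered differently by the antibodies: Spry4 was above Spry2 for Mettl3, and Spry2 above Spry4 for Zfp217.

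Ier2, an immediate early gene whose product acts in the nucleus, had 49.9 FPKM in the Mettl3 RIP, 32.3 FPKM in the Zfp217 RIP and 19.9 FPKM in the input. It had the highest Mettl3 ratio of the 5 genes, 2.51-fold (2.12 to 2.99), and a Zfp217 ratio of 1.61-fold (1.33 to 1.94). Jund, a subunit of the transcription factor AP-1, was the least abundant, at 5.63 FPKM in the Mettl3 RIP, 9.86 FPKM in the Zfp217 RIP and 3.51 FPKM in the input. Its Zfp217 ratio was the highest of the 5, 2.78-fold (1.88 to 4.27), and its Mettl3 ratio was 1.60-fold (1.06 to 2.47). The Jund intervals are wide because the input held few reads, about 33 by an estimate that rests on the substitute transcript length of 1668 bases. Jund aside, the input of each gene was above that of 98.4% to 99.1% of the transcripts listed for Mettl3 and 99.0% to 99.3% of those listed for Zfp217, so these 4 transcripts are among the abundant ones in the tables.

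**Figure D2:**
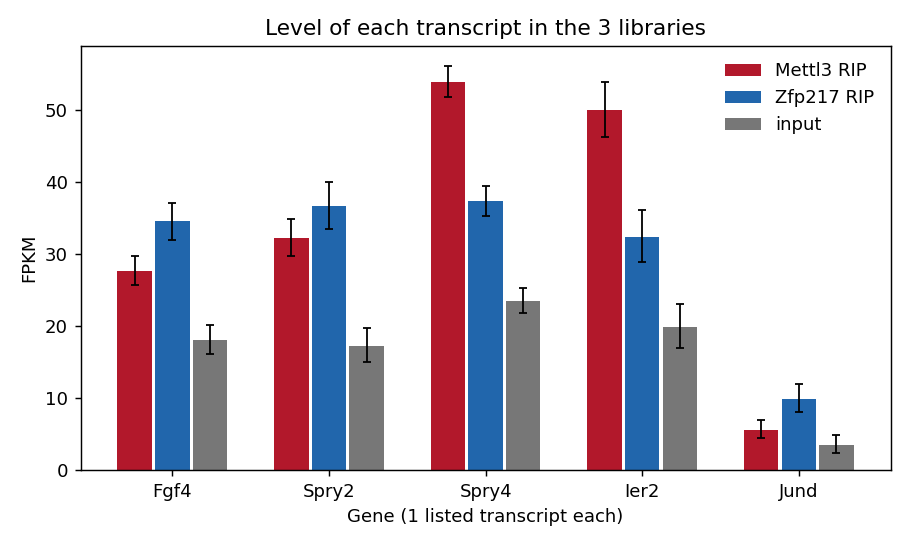
FPKM (y axis) of the 5 transcripts in the Mettl3 RIP, the Zfp217 RIP and the input, with bars for the deposited values of 1 library each and error bars for 95% Poisson counting intervals. Spry4 and Ier2 stand highest in the Mettl3 RIP, at 53.9 and 49.9 FPKM, while Fgf4, Spry2, Spry4 and Ier2 lie between 32.3 and 37.3 FPKM in the Zfp217 RIP.

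In level, the order in the Mettl3 RIP was Spry4, Ier2, Spry2, Fgf4 and Jund. Neither Spry4 and Ier2 nor Spry2 and Fgf4 were separated by their counting intervals there, whereas Ier2 was 1.55 times Spry2 with intervals that did not overlap. In the Zfp217 RIP the order was Spry4, Spry2, Fgf4, Ier2 and Jund, and the intervals of the first 4 genes overlapped between neighbours. The input had the order Spry4, Ier2, Fgf4, Spry2 and Jund, again with overlapping intervals between all neighbours except Spry2 and Jund. Jund was well below the others in every library.

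On the log2((RIP + 1)/(input + 1)) scale, which understates ratios of low transcripts, all 5 transcripts passed the filter of a mean of at least 1 FPKM in both tables. Of these, 2 passed 2-fold for Mettl3, Ier2 and Spry4, as did 51.1% of the 6667 kept transcripts. Another 2, Jund and Spry2, passed 2-fold for Zfp217, as did 49.1% of the 5248 kept transcripts. Among transcripts with an input of at least 1 FPKM, as all 5 have, the share past 2-fold was 33.8% for Mettl3 and 20.7% for Zfp217. The median log2 ratio of the 5 was 0.86 for Mettl3 and 0.88 for Zfp217, against 0.82 and 0.69 over all transcripts with such inputs. Beside these shares, 2 of 5 genes is no result about the 5 as a group.

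Each gene had its own place among the transcripts with an input of at least 1 FPKM. For Mettl3, Ier2 was above 81.9% of them, Spry4 above 76.7%, Spry2 above 53.5%, Fgf4 above 20.5% and Jund above 15.9%. For Zfp217, Jund was above 91.2%, Spry2 above 80.8%, Fgf4 above 70.5%, Ier2 above 43.8% and Spry4 above 39.6%. The 2 genes highest for Mettl3 were thus the lowest of the 5 for Zfp217. Neighbours in these orders were mostly not separated by counting error. For Mettl3 the Ier2 ratio was 1.09 times that of Spry4 (interval 0.906 to 1.32), while the Spry4 ratio was 1.23 times that of Spry2 (1.03 to 1.47). For Zfp217 the Jund ratio was 1.33 times that of Spry2 (0.869 to 2.02).

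**Figure D3:**
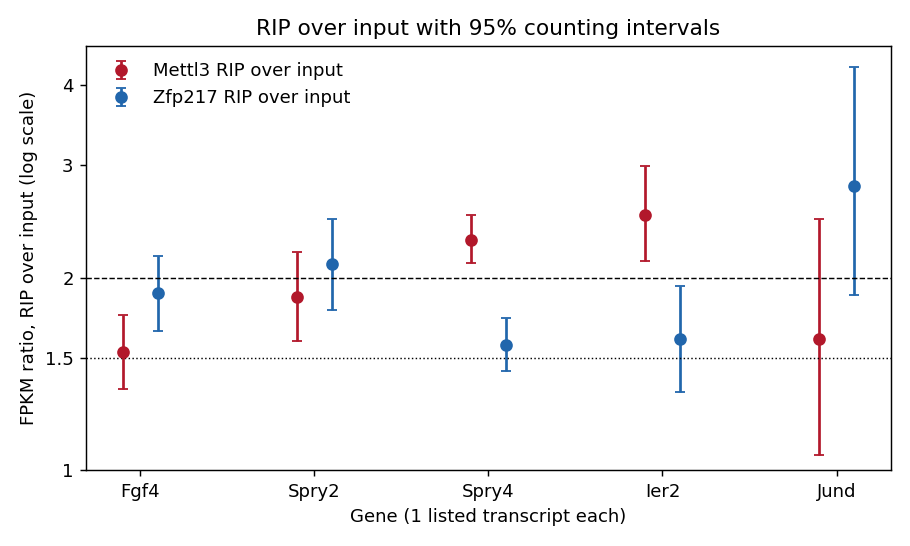
FPKM ratio of RIP over input (y axis, log scale) for each gene, Mettl3 left and Zfp217 right, with 95% counting intervals; the dotted line is the tables' 1.5-fold limit and the dashed line 2-fold. Spry4 and Ier2 have the higher ratio for Mettl3 with intervals clear of those for Zfp217, and Jund, Fgf4 and Spry2 have the higher ratio for Zfp217.

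All 5 transcripts were in both tables, whereas 42.4% of the transcripts listed for Mettl3 and 49.6% of those for Zfp217 were shared. With inputs of at least 1 FPKM these shares were 37.6% and 56.1%. The 5 genes were chosen with earlier results of these data known, so their presence in both tables is no result about them. Both ratios of a gene divide by the same input library, which differed between the tables only by a factor of 0.989 (Mettl3 over Zfp217) for each gene, so the difference between antibodies rests on the RIP libraries alone. Ier2 was 1.56 times as high over input in the Mettl3 RIP as in the Zfp217 RIP (interval 1.36 to 1.79), and Spry4 1.46 times (1.36 to 1.56). Jund was at 0.577 times (0.425 to 0.769), Fgf4 at 0.810 times (0.731 to 0.899) and Spry2 at 0.888 times (0.788 to 1.001). Ier2 and Spry4 therefore lay on the Mettl3 side and Jund and Fgf4 on the Zfp217 side by more than counting error, and the interval of Spry2 reached equality.

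Over the 1400 shared transcripts whose input reached 1 FPKM in each table, the median ratio of Mettl3 over Zfp217 was 1.11 (quartiles 0.886 and 1.44), a shift of 0.15 on the log2 scale. Relative to that median, Ier2 stood at 1.41 times (1.23 to 1.61), Spry4 at 1.32 times (1.23 to 1.41), Spry2 at 0.802 times (0.712 to 0.904), Fgf4 at 0.731 times (0.660 to 0.811) and Jund at 0.521 times (0.384 to 0.694). None of the 5 changed side, and the interval of Spry2 was then below equality. The Ier2 ratio was above 80.8% of the shared transcripts and the Spry4 ratio above 75.9%, while Jund was above only 3.29%. Counting intervals leave out the variation between immunoprecipitations, which 1 library per antibody cannot show, and differences between antibodies in what they pull down and between libraries in depth cannot be told apart from a difference in binding.

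**Figure D4:**
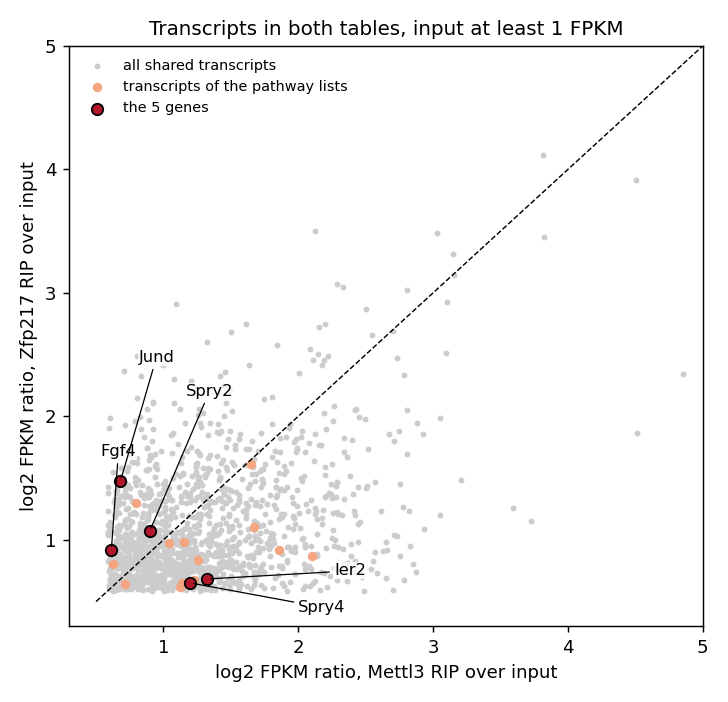
Log2 FPKM ratio over input for Mettl3 (x axis) and Zfp217 (y axis) of the 1400 transcripts in both tables with inputs from 1 FPKM up, with transcripts of the pathway lists in orange and the 5 genes named; the dashed line marks equal ratios. Jund, Fgf4 and Spry2 lie above the line and Spry4 and Ier2 below it; the empty margins are the tables' 1.5-fold limit.

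The rest of the pathway was described with 5 lists of 107 genes in all, of which 59 were listed for Mettl3, 52 for Zfp217, 43 for both and 39 for neither. Of the 107, 68 were listed for either. Over all genes, 6971 symbols were listed for Mettl3, 5933 for Zfp217 and 8547 for either. Unlisted genes are absent from the deposited selection, so the share of all genes that was listed is not known. The numbers of listed genes, here and list by list, are therefore no result about the pathway. With 1 transcript per gene, 29 of 49 kept genes passed 2-fold for Mettl3, beside 48.6% of all kept genes. For Zfp217 16 of 39 did, beside 45.5%. With inputs of at least 1 FPKM the counts were 21 of 37 for Mettl3, beside 34.1%, and 5 of 25 for Zfp217, beside 20.8%. The median log2 ratio over the kept genes of the lists was 1.05 for Mettl3, beside 0.98 over all kept genes, and 0.83 for Zfp217, beside 0.92. With inputs of at least 1 FPKM it was 1.02 for Mettl3, beside 0.83, and 0.73 for Zfp217, beside 0.69, so the Zfp217 median of the lists lay below that of all genes in one setting and above it in the other. Whether the antibodies differ over these lists was not tested.

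Among FGF ligands, receptors and the heparan sulfate enzymes that receptor binding needs, 5 of 16 genes were listed for Mettl3 and 7 for Zfp217. Of 4 kept genes in each table, 1 passed 2-fold for Mettl3 (all kept genes, 48.6%) and none for Zfp217 (45.5%) on the log2 scale with the pseudocount. With inputs of at least 1 FPKM these were 1 of 3 (all such genes, 34.1%) and 0 of 3 (20.8%). Hs6st1, a heparan sulfate sulfotransferase, had a ratio of 2.23 for Mettl3 (15.4 FPKM in the RIP, 6.89 in the input, interval 1.86 to 2.69) and of 1.98 for Zfp217 (13.8 FPKM in the RIP, 6.97 in the input). Ext1, which builds the heparan sulfate chain, was 1.81-fold higher in the Mettl3 RIP (1.46 to 2.25). Fgf15, another ligand, was listed for Zfp217 alone, at 3.54 FPKM against 1.57 in the input, with an interval of 1.25 to 4.32 around its 2.26-fold ratio. Fgf4 was the most abundant of the list in both RIPs.

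Adaptors, Ras, Raf, MEK, ERK and the kinases below them had 20 of 28 genes listed for Mettl3 and 16 for Zfp217, and 12 of 16 kept genes passed 2-fold for Mettl3 (all kept genes, 48.6%) and 10 of 12 for Zfp217 (45.5%). The input was under 0.01 FPKM in 4 of these genes for Mettl3 and 5 for Zfp217, and such genes pass 2-fold whenever they pass the filter. With inputs of at least 1 FPKM the counts were 8 of 11 (all such genes, 34.1%) and 2 of 3 (20.8%). A transcript of Braf, a kinase that activates MEK, had a Mettl3 ratio of 4.66 (13.8 FPKM in the RIP, 2.96 in the input, interval 3.97 to 5.47). Another Braf transcript was listed for Mettl3 at 2.04 FPKM against 0.000531 FPKM in the input. With both values at least 1 FPKM, the docking proteins Gab1 and Frs3 were lowest for Mettl3, at 1.62-fold (1.44 to 1.84) and 1.58-fold (0.781 to 3.37). For Zfp217 the highest with both values at least 1 FPKM were Mapk3, which encodes ERK1, and the adaptor Grb2. Mapk3 was at 3.52-fold (5.55 against 1.58 FPKM, 2.01 to 6.75) and Grb2 at 2.65-fold (1.69 to 4.31). These ratios hold for 1 transcript each and not for the gene. A further Mapk3 transcript was listed for Zfp217 at 1.53 FPKM against 0 FPKM in the input. A further Grb2 transcript was at 4.13 FPKM against 0.000563 FPKM. On the log2 scale with the pseudocount, Mapk3 was at 1.34, below the Zfp217 median of 1.47 over the 12 kept genes. With both values at least 1 FPKM, Sos1, which loads Ras with GTP, was lowest for Zfp217 at 1.53-fold. It had a Mettl3 ratio of 2.18.

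Inhibitors of the cascade had 10 of 18 genes listed for Mettl3 and 9 for Zfp217, with 4 of 9 kept genes past 2-fold for Mettl3 (all kept genes, 48.6%) and 2 of 7 for Zfp217 (45.5%). Where the input reached 1 FPKM, 3 of 8 (all such genes, 34.1%) and 1 of 6 (20.8%) did. Spred2 and Spred1, relatives of the Sprouty proteins that block Raf activation, were 3.63-fold (24.1 against 6.65 FPKM, interval 3.09 to 4.28) and 3.10-fold higher (19.0 against 6.14 FPKM, 2.68 to 3.59) in the Mettl3 RIP. Both were above Spry4 and Spry2 there. For Zfp217 Spred2 was 1.89-fold higher (1.57 to 2.27), below Spry2, and Spred1 was not listed. A transcript of the ERK phosphatase gene Dusp7 was at 1.64-fold for Mettl3 and 1.56-fold for Zfp217. Another Dusp7 transcript was listed for Mettl3 at 1.23 FPKM against 0 FPKM in the input. Il17rd, a membrane inhibitor of FGF signalling, was at 1.83-fold for Mettl3. Lgals1, a galectin counted in this list, was at 1.59-fold for Zfp217 (0.802 to 3.30), and whether it restrains the cascade was not tested.

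Immediate early genes had 16 of 33 listed for Mettl3 and 14 for Zfp217, with 7 of 12 kept genes past 2-fold for Mettl3 (all kept genes, 48.6%) and 3 of 11 for Zfp217 (45.5%). Where the input reached 1 FPKM, 7 of 11 (all such genes, 34.1%) and 2 of 9 (20.8%) did. On the scale with the pseudocount, Ier2 was highest of the list for Mettl3 and Jund for Zfp217 where RIP and input both reached 1 FPKM. Junb, another AP-1 subunit, followed Ier2 for Mettl3 at 2.43-fold (13.2 FPKM in the RIP, 5.43 in the input) and was not listed for Zfp217. Ier5l was next to Jund for Zfp217 at 3.06-fold (3.19 against 1.04 FPKM, 1.74 to 5.74), which is a higher plain ratio from lower values. The same holds for Mettl3, where Zfp36, another gene for an mRNA decay factor, had a plain ratio of 3.18 and Ier5l one of 3.13; Zfp36 was chosen after its values were seen. With both values at least 1 FPKM, lowest for Mettl3 with Jund was a transcript of Myc, a growth transcription factor, at 1.54-fold (1.11 to 2.11). This holds for the transcript ENSMUST00000022971 and not for the gene. Further Myc transcripts were listed for Mettl3 at 3.36 and 3.05 FPKM against 0 FPKM in the input. For Zfp217 the lowest with both values at least 1 FPKM, on the scale with the pseudocount, were Ier3 and Zfp36l1. Ier3 had a plain ratio of 1.83 (0.748 to 4.90). Zfp36l1, which promotes decay of AU-rich mRNAs, had one of 1.57 (1.23 to 2.05). By plain ratio Zfp36l1 and Ier2 were the lowest, and Ier3 was not.

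The factors that turn ERK activity into transcription had 8 of 12 genes listed for Mettl3 and 6 for Zfp217, with 5 of 8 kept genes past 2-fold for Mettl3 (all kept genes, 48.6%) and 1 of 5 for Zfp217 (45.5%). For Mettl3, 2 of the 8 had an input under 0.01 FPKM. Where the input reached 1 FPKM, 2 of 4 (all such genes, 34.1%) and 0 of 4 (20.8%) passed. Etv5, an ETS factor of FGF target genes, had the highest Mettl3 level of any pathway transcript with both values at least 1 FPKM, at 62.95 FPKM against 14.6 in the input. It was 4.30-fold higher in the Mettl3 RIP (interval 3.83 to 4.85) and 1.82-fold higher in the Zfp217 RIP (26.99 against 14.8 FPKM, 1.60 to 2.08). Mkl2, a coactivator of SRF, was 3.68-fold higher for Mettl3 (2.77 to 4.93). The ternary complex factor Elk1 was at 2.06-fold for Mettl3 and 1.97-fold for Zfp217, and a transcript of its relative Elk4 at 2.35-fold and 1.60-fold. Another Elk4 transcript was listed for Mettl3 at 2.37 FPKM against 0 FPKM in the input. A transcript of the ETS factor Etv4 was at 1.58-fold for Zfp217 (1.16 to 2.20). Other Etv4 transcripts had 0 FPKM in the input. They were at 2.70 and 1.78 FPKM in the Mettl3 RIP and at 2.27 FPKM in the Zfp217 RIP.

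**Figure D5:**
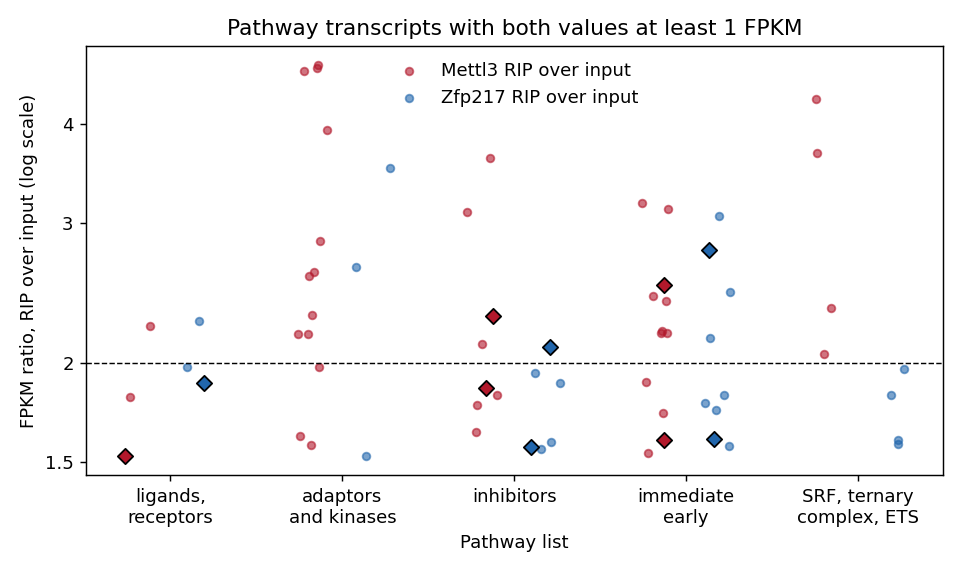
FPKM ratio of RIP over input (y axis, log scale) of pathway transcripts with both values at least 1 FPKM, by list, with Mettl3 left and Zfp217 right in each list, the 5 genes as outlined diamonds and the dashed line at 2-fold. Braf (4.66-fold) and Etv5 (4.30-fold) are among the highest Mettl3 points, and Mapk3 is the highest Zfp217 point at 3.52-fold.

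The transcripts most like each gene were found by the distance between log2 FPKM values over the 3 libraries among the 1400 shared transcripts. Ier2 was nearest to St13, a cochaperone, at a distance of 0.19, with 45.1 FPKM in the Mettl3 RIP, 30.0 in the Zfp217 RIP and 19.4 in the input. Spry4 was nearest to the small Cajal body RNA Scarna3a (distance 0.17), which was also the runner-up for Ier2 (0.31). Fgf4 was nearest to Sephs2, a selenophosphate synthetase (0.19), which was also near Spry2 (0.22), and Jund to Cpsf4, a cleavage and polyadenylation factor (0.16). With 3 libraries, such nearness describes similar levels and no more.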

How the data were processed

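RIP and input RNA of CCE cells was measured in 3 libraries, 1 per group. The authors deposited 2 tables of FPKM values per Ensembl transcript, each with their log2 ratio to input. The submitters' processing notes name build mm9, Cuffdiff, Cufflinks, TopHat2 2.0.8, Bowtie2 and CASAVA 1.4; what each did, and how it was set, is not given in the sources used here. Where inputs exceeded 1 FPKM, the authors' deposited log2 values differed from those of the FPKM columns by at most 1.31e-05, and ratios were computed from the FPKM columns.

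The log2 ratio used a pseudocount of 1 FPKM. Transcripts with a mean of at least 1 FPKM were kept, and 2-fold was the rule of size. Folds are plain FPKM ratios of 1 transcript, and other transcripts of the same gene can differ. No count model or p-value applies to 1 library per group.

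Reads were estimated as FPKM × (length − mean fragment length + 1) × fragments, with the fragment number and mean length that made most low values (up to 7 reads) of genes with 1 transcript whole within 0.04 reads. This held for 77.9% of 163 values (Mettl3 RIP) and 82.1% of 190 (Zfp217 RIP), with mean lengths of 142 and 140 bases. For the input it held for 84.0% of 181 values in the Mettl3 table and 82.4% of 142 in the Zfp217 table. The mean lengths there were 148 and 146 bases. In data simulated by the same model, with settings near the fitted ones, the estimator recovered the fragment number. That does not show that the estimate holds for the deposited values. Intervals (95%) are exact binomial (Clopper-Pearson) for ratios of 2 libraries, exact Poisson for levels and Wald intervals on the log scale for ratios of 2 folds; they cover counting error only.

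Lengths, sequences and coordinates come from GENCODE M21 (GRCm38), which matched 88.3% and 88.8% of transcript identifiers; no mm9 coordinate was used. GGACT was counted on the transcript strand. The members and lists were chosen with earlier results of these data known. Named genes were all members, the 2 highest and 2 lowest genes of each list and table with both values at least 1 FPKM, and the 2 nearest transcripts to each member, of which mainly the nearest is described; some items that this rule names are not reported here. Analyses used Python 3.11.15, pandas 2.3.3, scipy 1.17.1 and matplotlib 3.10.9.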

Additional observations from a re-analysis of the deposited data

How the results depend on the processing

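Pseudocounts of 0.1 and 0.5 FPKM, the input column of the other antibody's table and sums over a gene's listed transcripts left each log2 ratio of the 5 genes inside its counting interval, and the differences between antibodies kept their sign, also as plain ratios of the RIP values. The 2 of 5 genes past 2-fold in each RIP were 2 of 5 under every filter and pseudocount tried, while the share over all transcripts lay between 33.8% and 69.0% for Mettl3 and between 20.7% and 64.5% for Zfp217. For the pathway lists, the count of 16 genes past 2-fold in the Zfp217 RIP (of 39, beside 45.5% of all genes) was 9 of 32 without inputs under 0.01 FPKM, beside 27.8%, and 5 of 25 with inputs of at least 1 FPKM only, beside 20.6% (with the transcript of each gene chosen after the filter); both leave out genes with low inputs. The Mettl3 count of 29 of 49, beside 48.6% of all genes, lay between 21 and 38 over the alternatives. It was 21 of 37 with inputs of at least 1 FPKM only, beside 33.9%, and 38 of 59 with no filter on low values, beside 52.9%. With a pseudocount of 0.1 FPKM it was 36 of 49, beside 66.7%. No paired analysis was possible because each group had 1 library, and no library could be left out. Depth limits Jund most, at about 33 input reads.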

Other observations

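Several signalling genes were listed with a transcript that the input held at or near 0 FPKM, where no fold is given. There were 25 such transcripts of the pathway lists in the Mettl3 table and 25 in the Zfp217 table, each of 22 genes. They made up 32.1% of the 78 listed pathway transcripts for Mettl3 and 38.5% of the 65 for Zfp217, where 35.8% and 44.2% of all listed transcripts had such inputs, so near-zero inputs are a general property of the tables. Grb2, an adaptor between receptors and Ras, had a transcript (ENSMUST00000021090) at 11.4 FPKM in the Mettl3 RIP against 0.000478 FPKM in the input, and at 4.13 FPKM in the Zfp217 RIP against 0.000563 FPKM. Another Grb2 transcript had 1.68 FPKM in the input of the Zfp217 table, so the near-zero value belongs to the transcript and not to the gene. Rps6ka1, a kinase activated by ERK, was at 7.27 FPKM in the Mettl3 RIP and 7.45 FPKM in the Zfp217 RIP, and was listed at 0 in the input. Spry1, another Sprouty gene, was listed for Zfp217 alone, at 4.11 FPKM against 0.000384 FPKM in the input, and the immediate early gene Egr1 for Mettl3 alone, at 1.54 FPKM against 8.89e-05 FPKM. These genes were chosen after their values were seen. How the authors' estimation divided reads among transcripts was not tested.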
